A study of Mus musculus with 6 samples.

Results

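The glutathione transferases and aldehyde dehydrogenases were examined in GCs (granulosa cells, the somatic cells that surround the oocyte in the follicle) of mice given cyclophosphamide (CTX). Members were all protein-coding genes of the deposited table whose symbols begin with *Gst* followed by a class letter (alpha, kappa, mu, omega, pi, sigma, theta or zeta) and a number, with *Mgst* or with *Aldh*. This rule found 46 genes of the 54532 in the table, of which 25 were glutathione transferases and 21 were aldehyde dehydrogenases. No gene named for the sigma class was found, and the pseudogene *Gstm2-ps1* was left out because it is not protein-coding.

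The mice were ICR females 3 weeks old that had all been primed with PMSG, a gonadotropin that drives follicle growth. They then received 1 intraperitoneal injection of either PBS (the control group) or CTX, and GCs were collected after 6 h. Each group had 3 samples, and each sample pooled the GCs of 3 mice, so the spread between mice cannot be seen. RNA-seq expression was given as FPKM, the fragments counted on a gene per kilobase of gene length, scaled to sequencing depth by the authors. Sample 1 of the PBS group is written PBS 1, and so on.

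Cyclophosphamide is a prodrug. Liver cytochromes P450 turn it into 4-hydroxycyclophosphamide and its open form aldophosphamide, which enter cells and break down into phosphoramide mustard, the DNA alkylator, and acrolein, a reactive aldehyde. Aldehyde dehydrogenases, above all ALDH1A1 and ALDH3A1, oxidise aldophosphamide to an inactive acid. Glutathione transferases join the thiol of glutathione to acrolein, to the mustard and to aldehydes made when membrane lipids are oxidised. Both families also have housekeeping roles, in amino acid breakdown, folate and carnitine metabolism and in making retinoic acid from retinal.

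The rebuilt reads on genes numbered 16005869 to 17790353 in the PBS samples and 17727770 to 18455011 in the CTX samples, so that 3 reads on 1 kb of gene were worth 0.164 to 0.185 FPKM. The GC label was checked against 10 granulosa markers, which were all detected and summed to between 10360 and 12730 FPKM in every sample, mostly from *Inha*, the inhibin alpha subunit. CTX 2 stood apart from the other 5 samples. On the first principal component, which held 46.8% of the variance, it lay at 74.7, and the other samples lay between −26.6 and 13.2. The 6 theca and interstitial cell markers summed to between 166 and 170 FPKM in the PBS samples, and to 204.5, 12.04 and 95.2 FPKM in CTX 1, 2 and 3. This sum was carried by *Lhcgr*, *Cyp17a1* and *Star*, which were each lowest in CTX 2. The others of the list did not share this, as *Ptch1* was at 6.55 FPKM in CTX 2 and at 3.14 to 4.21 FPKM elsewhere, *Insl3* was at 0.814 FPKM there and at 0.270 to 0.396 FPKM in PBS, and *Gli1* was at 0.226 FPKM there and at 0.207 to 0.272 FPKM in PBS. Summed stroma markers were at 13.3 to 13.8 FPKM in PBS and at 25.9, 6.70 and 21.2 FPKM in CTX 1, 2 and 3. The erythroid and endothelial sums were also lowest in CTX 2 (138 and 1.79 FPKM). In these lists *Tcf21* (stroma), *Alas2* and *Hba-a2* (erythroid) and *Pecam1* and *Tek* (endothelium) were not lowest in CTX 2, while the others were. The endothelial sum was mostly *Cdh5*, as the other 4 markers of that list were under 1 FPKM in every sample. *Lhcgr*, which encodes the LH receptor and which primed GCs also make, was at 1.48 FPKM in CTX 2 and at 53.1 to 129 FPKM in the other samples. Leukocyte markers summed to between 20.9 and 23.0 FPKM in PBS and to 35.3, 66.2 and 24.8 FPKM in CTX 1, 2 and 3. That sum was mostly *Lyz2*, at 13.1 to 14.3 FPKM in PBS and at 22.9, 45.8 and 14.7 FPKM in CTX 1, 2 and 3. The pan-leukocyte marker *Ptprc* was at or under 0.0983 FPKM in all samples.

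The 46 members covered a wide range of levels in PBS. Their mean FPKM was 50 or more in 7 genes, between 10 and 50 in 8, between 1 and 10 in 17 and under 1 in 14. The 7 most expressed members were *Gsta4*, *Gstp1*, *Gstm2*, *Gstm1*, *Aldh2*, *Mgst1* and *Aldh3b1*. Transferase levels summed to 712 ± 27.5 FPKM in PBS (mean ± SD, n = 3), of which *Gsta4* made up 25.9%. Aldehyde dehydrogenase levels summed to 279 ± 6.02 FPKM in PBS, of which *Aldh2* made up 30.7%. The 5 most expressed genes of each family held 79.7% and 79.3% of its sum.

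**Figure D1:**
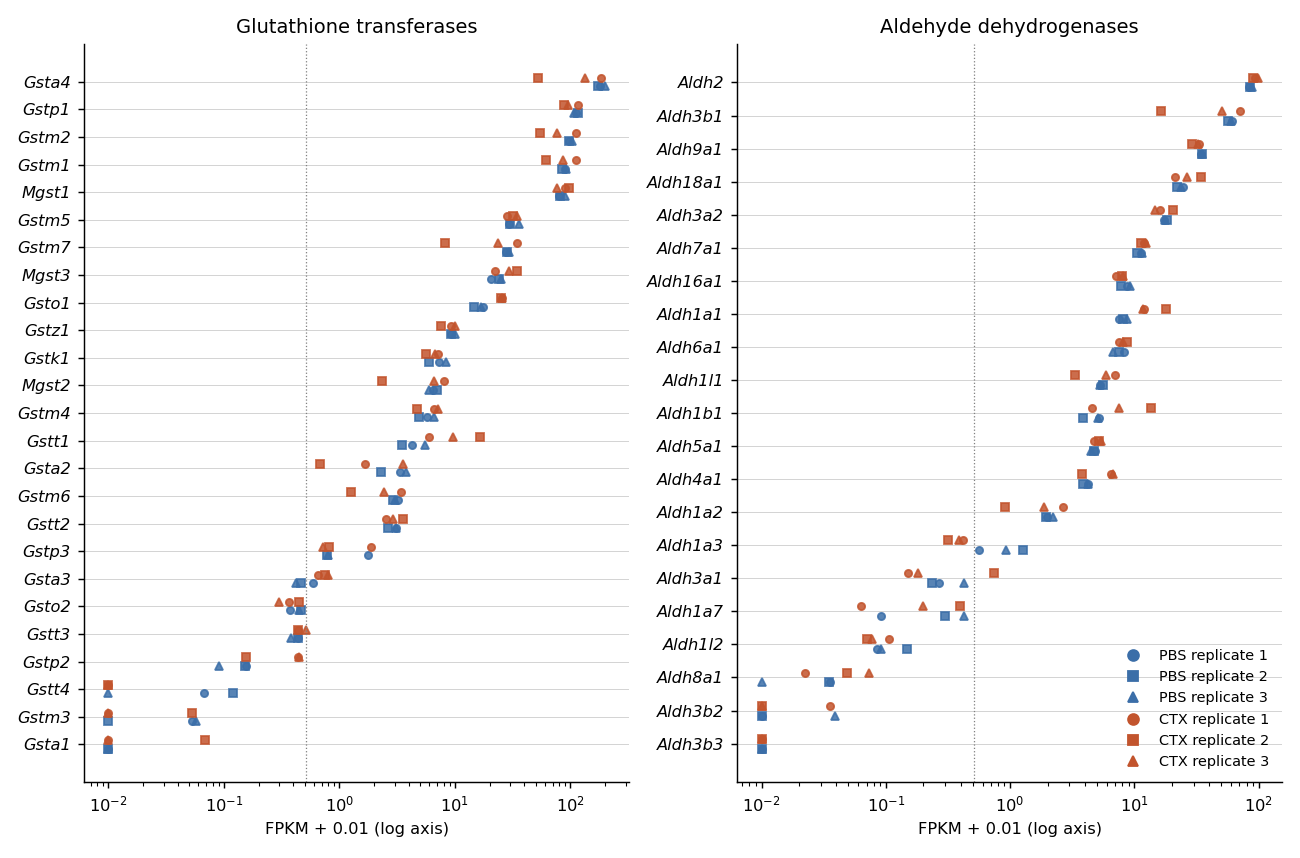
Level of each of the 46 members in each sample, as FPKM + 0.01 on a log axis, with transferases on the left and aldehyde dehydrogenases on the right, ordered by PBS mean. Blue symbols are PBS and orange symbols CTX samples, the dotted line marks 0.5 FPKM, and the CTX 2 square lies apart from the other samples in *Gsta4*, *Aldh3b1* and *Gstm7*.

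The question was how transcript levels of these genes differed between CTX and PBS. Of the 46 members, 34 had a mean of at least 0.5 FPKM over the 6 samples and were tested (19 transferases and 15 aldehyde dehydrogenases), and 12 were not. The test was limma on log2(FPKM + 0.1), with p-values adjusted by the Benjamini-Hochberg method over all 14463 genes tested, and genes are said to have risen or fallen where the adjusted p was below 0.05. 1 transferase, *Gsto1*, rose, and 0 members fell. Over all genes tested, 1.76% were called, as 1.40% rose and 0.360% fell, so the members' count lies near this background. By the DEG threshold of the study, which also asks for more than a 2-fold change, 0 members were called, against 0.961% of all genes. At an unadjusted p below 0.05 there were 4 members, against 19.6% of all genes. limma's voom on rebuilt reads also called 1 member higher and 0 lower, with 5 at an unadjusted p below 0.05.

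The tested members moved both ways. Of the 34, 16 had a positive and 18 a negative log2 fold change, with a median of −0.03, beside −0.01 over all genes tested. The log2 fold change lay within ±0.5 in 24 of the 34 members, a smaller share than the 11999 of all 14463 genes tested. Among members it ranged from −1.07 (*Aldh1a3*) to 1.16 (*Gstt1*). The median was −0.07 over transferases and 0.10 over aldehyde dehydrogenases. All 3 CTX values lay above all 3 PBS values in 5 members (14.7%, against 15.0% of all genes), namely *Gsto1*, *Aldh1a1*, *Gstt1*, *Aldh2* and *Gsta3*. All 3 lay below in *Aldh9a1* and *Aldh1a3* (5.88%, against 14.1%), and the groups overlapped in the other 27.

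**Figure D2:**
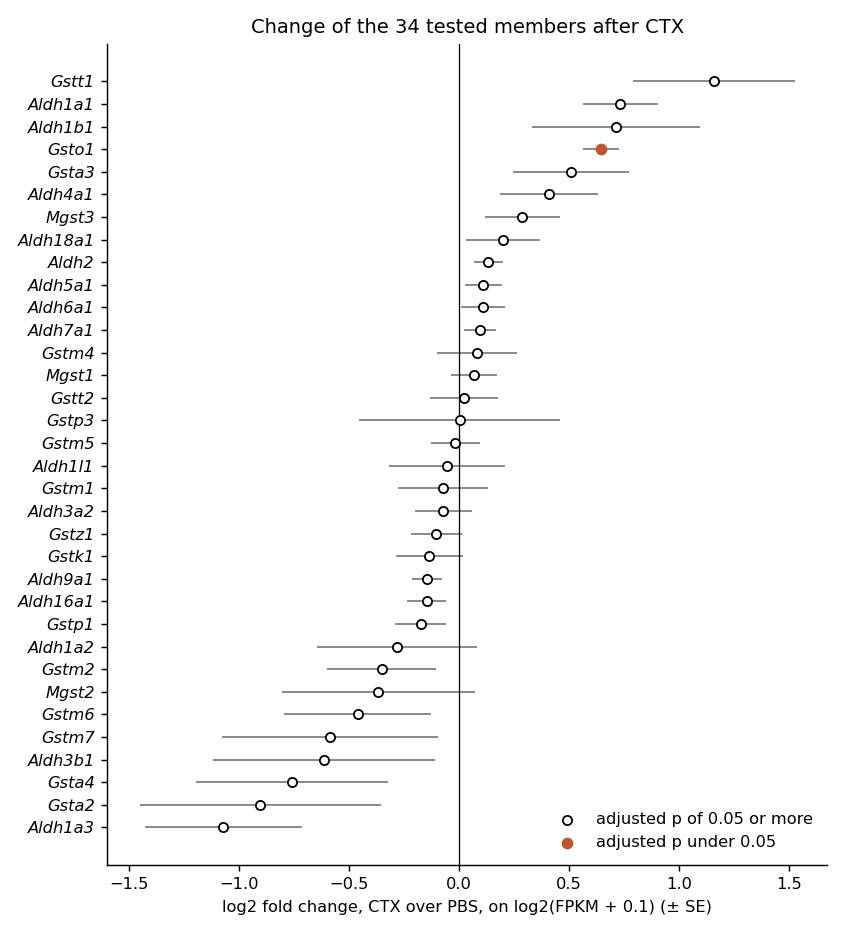
Log2 fold change of CTX over PBS on log2(FPKM + 0.1), with its standard error from limma, for the 34 tested members in order of size. *Gsto1*, at 0.65, is filled because its adjusted p was below 0.05, while members with larger changes, such as *Gstt1* at 1.16, have wider errors.

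*Gsto1* (ENSMUSG00000025068, chromosome 19, 47854970 to 47864790, plus strand, GRCm38) encodes the omega class transferase, which carries a cysteine in its active site and reduces dehydroascorbate and mixed disulphides more than it conjugates electrophiles. Its level was 17.4, 14.6 and 16.9 FPKM in PBS 1, 2 and 3 and 25.8, 25.2 and 25.6 FPKM in CTX 1, 2 and 3. The CTX samples lay close together, CTX 2 included, and all lay above the PBS samples. The mean was 16.3 ± 1.504 FPKM in PBS and 25.5 ± 0.283 FPKM in CTX (SD, n = 3), and the log2 fold change was 0.65 ± 0.08 (SE; limma, adjusted p = 0.0203). The call depended on which samples were included. Without PBS 1, 2 or 3 or without CTX 3 the adjusted p was 0.0717, 0.0632, 0.0925 and 0.0946, at log2 fold changes of 0.57 to 0.70. No stretch of 100 bases of its transcripts occurs in another gene's transcripts in GENCODE M21, and its exons overlap no other gene. The other omega gene, *Gsto2*, with 66.9% coding identity to *Gsto1*, held between 8 and 13 reads per sample and was not tested.

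The bases before the *Gsto1* start are shown because it was the member that rose. The sequence is the 250 bases upstream of its RefSeq start on GRCm38.p6 (chr19:47854723-47854972, plus strand), read 5′ to 3′. It was searched on both strands for TGACNNNGC, the core of the antioxidant response element, and for TGAGTCA, an AP-1 motif, and holds neither, so that no base is in capitals.

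Gsto1 upstream: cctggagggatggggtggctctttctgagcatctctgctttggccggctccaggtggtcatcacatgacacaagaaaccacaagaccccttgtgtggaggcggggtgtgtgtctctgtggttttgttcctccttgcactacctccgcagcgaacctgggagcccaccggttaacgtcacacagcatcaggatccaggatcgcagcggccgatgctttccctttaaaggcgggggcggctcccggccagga

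Among RefSeq windows from 250 bases before to 50 bases after a start, TGACNNNGC was found in 12.4% of all 32851 windows and in 6 of the 49 windows of members (12.2%), which cover 38 of the 46 members. These were windows of *Aldh1a2*, *Aldh9a1*, *Gsta3*, *Gstm5*, *Gstm7* and *Mgst1*, none of which rose or fell. TGAGTCA was found in 5.20% of all windows and in 5 windows of members (10.2%), those of *Aldh1a1*, *Gstm5*, *Gstp1*, *Gstp2* and *Mgst2*. The motifs can share bases, and 311 of all windows held both.

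*Gstt1* (chromosome 10, 75783813 to 75798584, minus strand) encodes a theta class transferase, which acts on small halogenated compounds. It had the largest positive log2 fold change of the members and was not called. Its level was 4.26, 3.46 and 5.49 FPKM in PBS 1, 2 and 3 and 5.96, 16.4 and 9.57 FPKM in CTX 1, 2 and 3. The groups did not overlap, but PBS 3 and CTX 1 lay next to each other, and CTX 2 was 2.11 times the mean of CTX 1 and 3. The log2 fold change was 1.16 ± 0.37 (limma, adjusted p = 0.179), and 0.79 ± 0.26 without CTX 2 (adjusted p = 0.169). The other tested theta gene, *Gstt2*, had a log2 fold change of 0.02. *Gstt3* held 23 to 35 reads per sample and was not tested, and *Gstt4* held at most 2 reads.

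The alpha class was read mostly from a single gene, *Gsta4*, which held 98.1% of its PBS sum. *Gsta4* encodes a transferase with high activity towards 4-hydroxynonenal, an aldehyde from oxidised lipids, and ranked above 99.2% of protein-coding genes in PBS. It was at 181, 175 and 198 FPKM in PBS 1, 2 and 3 and at 184, 52.5 and 134 FPKM in CTX 1, 2 and 3. CTX 1 lay among the PBS samples, CTX 3 below them and CTX 2 far below, at 0.331 times the mean of CTX 1 and 3. Its log2 fold change was −0.76 ± 0.44 (limma, adjusted p = 0.370), and −0.23 ± 0.14 without CTX 2 (adjusted p = 0.418). The low CTX 2 level of *Gsta4* stood beside low *Lhcgr*, *Cyp17a1* and *Star* and low stroma, erythroid and endothelial sums in that sample. Not every marker in those sums was lowest there, and *Ptch1* was high. The part of cell makeup in the *Gsta4* level was not tested. In bulk RNA, fewer cells of a type and less RNA per cell cannot be told apart.

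The other alpha genes were expressed at much lower levels. *Gsta2* held between 49 and 72 reads per PBS sample, and 35, 14 and 74 in CTX 1, 2 and 3, with a log2 fold change of −0.90 ± 0.55 (limma, adjusted p = 0.391). *Gsta3* was at 0.581, 0.452 and 0.412 FPKM in PBS and at 0.648, 0.740 and 0.784 FPKM in CTX, so the groups did not overlap, with a log2 fold change of 0.51 ± 0.26 (limma, adjusted p = 0.330). *Gsta1*, with 97.6% coding identity to *Gsta2*, held 1 read in all. Of the 100-base stretches of *Gsta2* transcripts, 28.4% occur in other genes, chiefly *Gsta1*, so the split of reads between the 2 genes is uncertain.

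Mu class transferases, cytosolic enzymes of broad substrate range that lie in 1 gene cluster, summed to 256 ± 10.6 FPKM in PBS and 230 ± 67.3 FPKM in CTX. Of the 6 tested, 5 had a negative log2 fold change, and 0 were called. *Gstm2*, the most expressed, was at 97.7, 96.6 and 102 FPKM in PBS 1, 2 and 3 and at 112, 54.5 and 75.9 FPKM in CTX 1, 2 and 3. CTX 1 lay above the PBS samples and CTX 2 and 3 below them. Its log2 fold change was −0.35 ± 0.25 (limma, adjusted p = 0.449), and −0.10 ± 0.16 without CTX 2 (adjusted p = 0.778).

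*Gstm7* had a coefficient of variation of 59.3% among CTX samples, beside 2.25% among PBS samples. It stood at 27.9, 28.2 and 29.2 FPKM in PBS and at 34.3, 8.24 and 23.8 FPKM in CTX 1, 2 and 3. *Gstm6* was at 0.428 times the mean of CTX 1 and 3 in CTX 2, and *Gstm1* at 0.624 times. *Gstm5*, by contrast, was at 31.5 FPKM in CTX 2, between 28.2 and 34.5 FPKM in CTX 1 and 3, and its log2 fold change was −0.02. *Gstm4* had a log2 fold change of 0.08, and *Gstm3* held at most 1 read per sample. Coding identity within the class reached 85.2%, between *Gstm2* and *Gstm7*, but only 0.357% of the 100-base stretches of *Gstm2* and 0% of those of *Gstm7* occur in another gene.

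The pi class is read almost wholly from *Gstp1*, a major transferase of many tissues that also binds and restrains the kinase JNK. *Gstp1* was at 112, 116 and 107 FPKM in PBS 1, 2 and 3 and at 116, 87.6 and 95.3 FPKM in CTX 1, 2 and 3. CTX 1 lay beside PBS 2, and CTX 2 and 3 lay below all PBS samples. Its log2 fold change was −0.17 ± 0.11 (limma, adjusted p = 0.420), and −0.09 ± 0.10 without CTX 2 and −0.29 without CTX 1 (adjusted p = 0.678 and 0.0966). *Gstp3* held 9 to 24 reads per sample, with a log2 fold change of 0.00 ± 0.46. *Gstp2* held 2, 2 and 1 reads in PBS 1, 2 and 3 and 6, 2 and 6 in CTX 1, 2 and 3, and was not tested.

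*Gstp1* and *Gstp2* are near copies that lie side by side on chromosome 19, and their sequences are shown because counts could be split between them. The coding sequences, of 630 bases each, differ at 12 positions, and 300 bases in a row are identical. In coding bases 1 to 60 there are 6 differing positions, in capitals, read 5′ to 3′ from the start codon on GENCODE M21 transcripts.

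Gstp1 coding: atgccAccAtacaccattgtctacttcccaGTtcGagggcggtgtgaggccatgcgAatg
Gstp2 coding: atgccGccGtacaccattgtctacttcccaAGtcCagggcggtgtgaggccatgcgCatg

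Of the 100-base stretches of *Gstp1* transcripts, 25.1% occur in other genes, chiefly *Gstp2*, as do 46.9% of those of *Gstp2*. The 250 bases before the 2 starts are 78.1% identical and both hold TGAGTCA, in capitals, whose first base lies 74 bases before the *Gstp1* start and 89 before that of *Gstp2*. They are given 5′ to 3′ from RefSeq on GRCm38.p6, minus strand, for *Gstp1* (chr19:4037913-4038162) and *Gstp2* (chr19:4042222-4042471). The motif is shared by a gene at 87.6 to 116 FPKM and one with at most 6 reads per sample.

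Gstp1 upstream: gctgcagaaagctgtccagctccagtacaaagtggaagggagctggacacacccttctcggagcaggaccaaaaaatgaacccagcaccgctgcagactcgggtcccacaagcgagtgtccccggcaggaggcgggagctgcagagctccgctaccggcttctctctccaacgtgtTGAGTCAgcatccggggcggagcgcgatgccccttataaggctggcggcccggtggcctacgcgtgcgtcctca
Gstp2 upstream: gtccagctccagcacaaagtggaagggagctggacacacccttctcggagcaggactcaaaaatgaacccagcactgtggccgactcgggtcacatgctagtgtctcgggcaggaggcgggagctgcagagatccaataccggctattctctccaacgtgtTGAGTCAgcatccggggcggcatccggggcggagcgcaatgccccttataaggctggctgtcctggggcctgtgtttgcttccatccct

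*Gstz1*, the maleylacetoacetate isomerase of tyrosine breakdown, was at 9.26, 9.28 and 9.94 FPKM in PBS 1, 2 and 3 and at 9.15, 7.52 and 9.99 FPKM in CTX 1, 2 and 3. Only CTX 2 lay away from the rest, and the log2 fold change was −0.10 ± 0.12 (limma, adjusted p = 0.631). *Gstk1*, the kappa class enzyme of mitochondria and peroxisomes, was at 7.22, 5.94 and 8.28 FPKM in PBS and at 7.14, 5.56 and 6.73 FPKM in CTX. The groups overlapped, and its log2 fold change was −0.14 ± 0.15 (limma, adjusted p = 0.633). With each sample left out in turn it ran from −0.26 (without PBS 2) to −0.02 (without PBS 3).

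The microsomal transferases are membrane proteins, unrelated in fold to the cytosolic ones, and summed to 114 ± 7.09 FPKM in PBS and 123 ± 10.4 FPKM in CTX. *Mgst1*, which protects membranes against lipid peroxides, was at 79.9, 81.6 and 90.3 FPKM in PBS 1, 2 and 3 and at 90.6, 97.1 and 77.1 FPKM in CTX 1, 2 and 3. CTX 2 was the highest and CTX 3 the lowest of the 6, and the log2 fold change was 0.07 ± 0.10 (limma, adjusted p = 0.728). *Mgst2* and *Mgst3* moved apart in CTX 2. *Mgst2* was at 2.31 FPKM there and at 5.90 to 8.03 FPKM elsewhere, while *Mgst3* was at 34.4 FPKM there and at 20.6 to 29.6 FPKM elsewhere.

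The ALDH1 family includes the enzymes that turn retinal into retinoic acid. *Aldh1a1* (chromosome 19, 20492715 to 20643462, plus strand) is also the member best known for inactivating aldophosphamide. It was at 7.57, 8.08 and 8.73 FPKM in PBS 1, 2 and 3 and at 11.955, 17.8 and 11.7 FPKM in CTX 1, 2 and 3. The groups did not overlap, and CTX 2 was the highest of the 6. The means were 8.13 ± 0.581 and 13.8 ± 3.44 FPKM (SD, n = 3), and the log2 fold change of 0.73 ± 0.17 was not called (limma, adjusted p = 0.108). Without CTX 2 the log2 fold change was smaller, 0.54 ± 0.08, and was called (limma, adjusted p = 0.0266). Its close relative *Aldh1a7*, with 91.7% coding identity, held 2 to 14 reads per sample, and 0.0203% of the 100-base stretches of *Aldh1a1* are shared with another gene.

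*Aldh1a3* (chromosome 7, 66390890 to 66427517, minus strand), another retinal dehydrogenase, had the most negative log2 fold change of the members. It was at 0.547, 1.26 and 0.923 FPKM in PBS 1, 2 and 3 and at 0.406, 0.305 and 0.375 FPKM in CTX 1, 2 and 3. The CTX samples lay close together below the PBS samples, which were spread more than 2-fold. These values stand on 45, 107 and 69 reads in PBS and 34, 25 and 31 in CTX. The log2 fold change of −1.07 ± 0.36 was not called (limma, adjusted p = 0.191), nor was that of −0.98 ± 0.39 without CTX 2 (adjusted p = 0.242).

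The third retinal dehydrogenase, *Aldh1a2*, was at 1.95 to 2.21 FPKM in PBS and at 2.66, 0.896 and 1.87 FPKM in CTX 1, 2 and 3, with a log2 fold change of −0.28 ± 0.36. *Aldh1b1*, a mitochondrial enzyme, was high in CTX 2, at 13.7 FPKM beside 4.51 and 7.46 FPKM in CTX 1 and 3 and 3.85 to 5.23 FPKM in PBS. Its log2 fold change was 0.71 ± 0.38 (limma, adjusted p = 0.343). *Aldh1l1*, which acts on 10-formyltetrahydrofolate, was at 5.26 to 5.54 FPKM in PBS and at 6.98, 3.29 and 5.95 FPKM in CTX 1, 2 and 3. Its mitochondrial counterpart *Aldh1l2* held 8 to 19 reads per sample and was not tested.

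**Figure D3:**
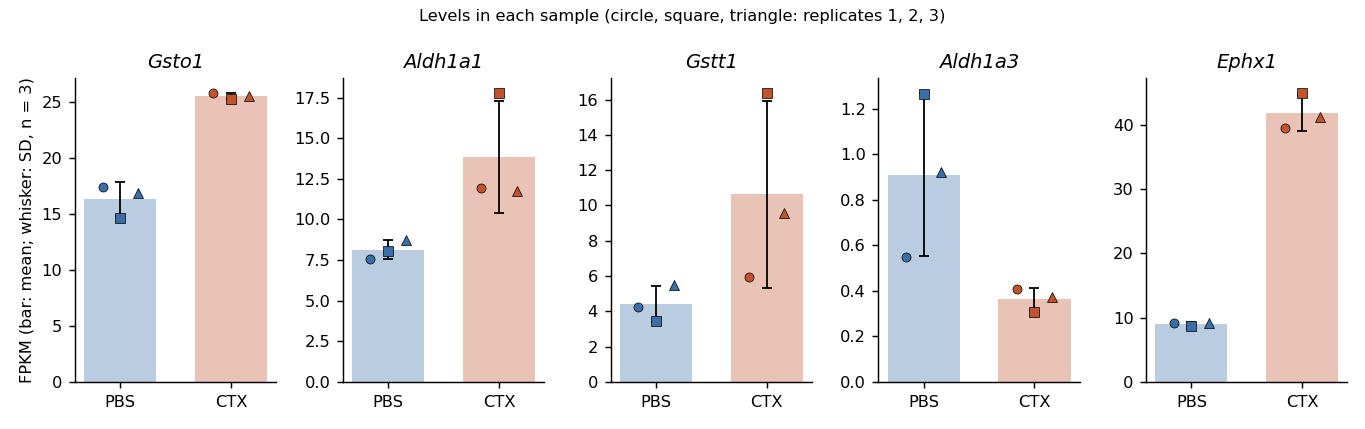
FPKM in each sample (circle, square and triangle for replicates 1, 2 and 3) with the group mean as a bar and its SD as a whisker (n = 3), for the 4 members with an unadjusted p below 0.05 and for *Ephx1*. In *Gsto1* and *Ephx1* the CTX samples lie close together, while in *Aldh1a1* and *Gstt1* the CTX 2 square is the highest.

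*Aldh2*, the mitochondrial enzyme that clears acetaldehyde and lipid aldehydes, was the most expressed aldehyde dehydrogenase and varied little. It was at 83.0, 84.8 and 88.8 FPKM in PBS 1, 2 and 3 and at 93.0, 90.5 and 98.0 FPKM in CTX 1, 2 and 3. The groups did not overlap, but the means of 85.5 ± 3.01 and 93.9 ± 3.84 FPKM were close, and the log2 fold change of 0.13 ± 0.06 was not called (limma, adjusted p = 0.306).

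*Aldh3b1*, an enzyme of medium and long chain aldehydes, was the second most expressed aldehyde dehydrogenase and had its lowest level in CTX 2. It was at 61.5, 57.0 and 60.02 FPKM in PBS 1, 2 and 3 and at 70.2, 16.4 and 50.8 FPKM in CTX 1, 2 and 3. CTX 1 lay above the PBS samples and CTX 3 below them. A log2 fold change of −0.61 ± 0.51 was fitted with all samples (limma, adjusted p = 0.515), and one of 0.01 ± 0.14 without CTX 2 (adjusted p = 0.987). *Aldh3a2*, the fatty aldehyde dehydrogenase, had a log2 fold change of −0.07. *Aldh3a1*, the other enzyme known for oxidising aldophosphamide, held between 8 and 13 reads per PBS sample, and 5, 25 and 6 in CTX 1, 2 and 3, and was not tested.

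The other aldehyde dehydrogenases serve set metabolic routes, and their levels summed to 94.1 ± 2.47 FPKM in PBS and 97.3 ± 4.57 FPKM in CTX. *Aldh9a1*, of carnitine synthesis, was the most expressed, at 34.2, 34.9 and 35.2 FPKM in PBS 1, 2 and 3 and at 32.9, 29.2 and 32.4 FPKM in CTX 1, 2 and 3. The groups did not overlap, and the log2 fold change of −0.14 ± 0.07 was not called (limma, adjusted p = 0.294). *Aldh18a1*, which makes the precursor of proline, was at 34.3 FPKM in CTX 2 and at 21.4 to 26.5 FPKM elsewhere.

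*Aldh4a1*, of proline breakdown, was at 4.23, 3.81 and 4.19 FPKM in PBS 1, 2 and 3 and at 6.42, 3.76 and 6.69 FPKM in CTX 1, 2 and 3. CTX 1 and 3 lay above all PBS samples and CTX 2 below them. The log2 fold change was 0.41 ± 0.22 (limma, adjusted p = 0.348), and 0.67 without CTX 2 (adjusted p = 0.0167). Of its exon bases, 32.5% are shared with *Gm21969*, a gene on the same strand, so its level is uncertain. *Aldh5a1*, *Aldh6a1*, *Aldh7a1* and *Aldh16a1* had log2 fold changes of 0.11, 0.11, 0.10 and −0.15, and antisense genes overlap the exons of all 4, as they do those of *Aldh2*, *Aldh1l1*, *Gstm5* and *Gstz1*. Whether counting used strand is not given in the sources used here. *Aldh8a1* held at most 5 reads per sample, *Aldh3b2* at most 1 and *Aldh3b3* 0. A count of 0 allows up to 3 reads, and covers counting error only.

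The coefficient of variation was larger among CTX than among PBS samples in 26 of the 34 tested members, and in 10001 of all 14463 genes tested. How much of this came from CTX 2 was not tested. The median coefficient of variation over the 34 tested members was 6.91% among PBS and 20.7% among CTX samples, beside 7.35% and 12.9% over all genes tested. CTX 2 was the lowest of the 6 samples in 17 of the 34 members, against 28.1% of all genes, and the highest in 9 (26.5%, against 29.9%). In 7 members (20.6%, against 7.43% of all genes) CTX 2 was under 0.5 times the mean of CTX 1 and 3, namely *Gsta4*, *Aldh3b1*, *Gstm7*, *Mgst2*, *Gsta2*, *Gstm6* and *Aldh1a2*. In *Aldh1b1* and *Gstt1* it was over 2 times that mean (5.88%, against 3.44%). CTX 3 lay between CTX 1 and CTX 2 in 20 members (58.8%, against 51.4% of all genes), as it did in *Lhcgr*, *Cyp17a1*, *Star* and the stroma sum but not in *Ptch1* or *Insl3*. Among GC genes, *Cyp19a1*, the aromatase, was at 6.61 FPKM in CTX 2 and at 32.5 to 62.4 FPKM elsewhere, and *Amh*, of small growing follicles, was at 179 FPKM there and at 48.4 to 85.5 FPKM elsewhere. The part of cell or follicle makeup in these member levels was not tested. None of the 10 granulosa and 6 theca and interstitial markers was called between the groups. In 6 of the 10 granulosa markers (*Fshr*, *Inha*, *Inhba*, *Foxl2*, *Cyp19a1* and *Hsd17b1*) all CTX values lay below all PBS values, against 14.1% of all genes. In *Amh* all CTX values lay above all PBS values, against 15.0% of all genes, and in *Esr2*, *Nr5a2* and *Amhr2* the groups overlapped. Of the leukocyte markers, *Lyz2*, *Cd68* and *Tyrobp* also had all CTX values above all PBS values, and none was called. The groups overlapped in the other leukocyte markers. Among markers of other cells, *Acta2*, of smooth muscle, rose from 8.06 ± 0.482 to 17.3 ± 2.93 FPKM (log2 fold change 1.08 ± 0.13, limma, adjusted p = 0.0166), and the other 4 markers of that list were under 1 FPKM in every sample.

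**Figure D4:**
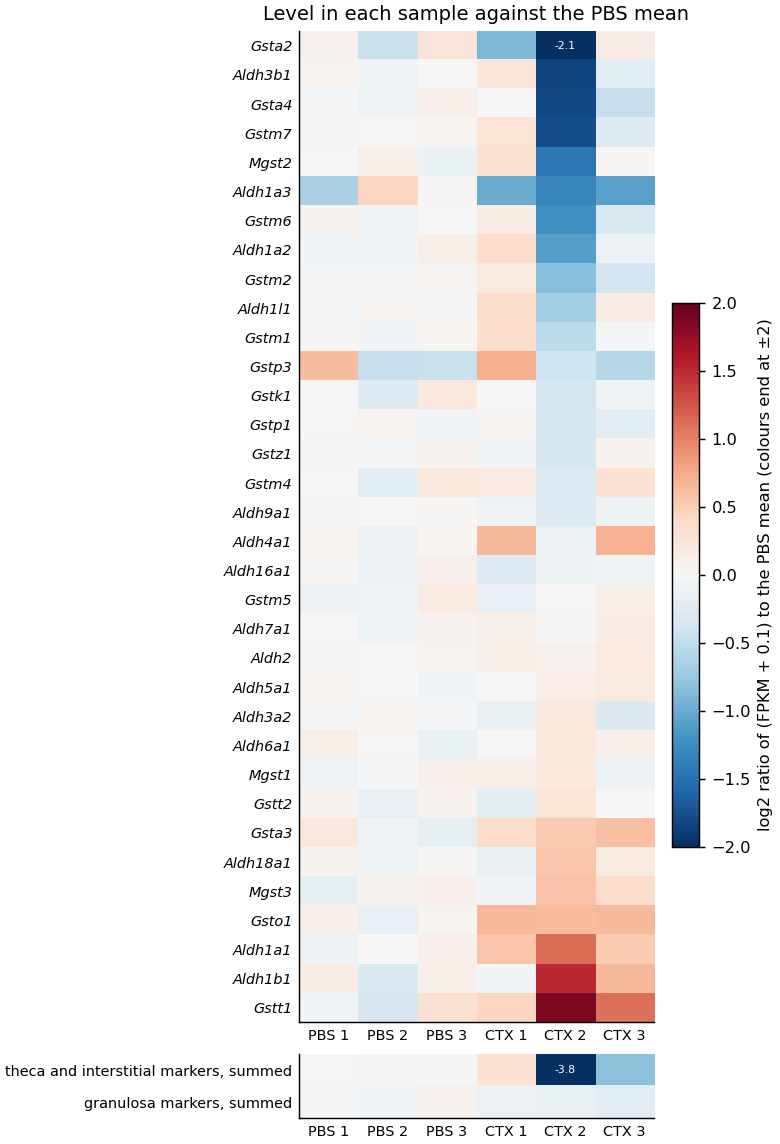
Log2 ratio of (FPKM + 0.1) to the PBS mean for the 34 tested members and, below, for the summed theca and interstitial markers and granulosa markers in each of the 6 samples, with colours ending at ±2. The CTX 2 column holds the deepest blues, in *Gsta2*, *Aldh3b1*, *Gsta4* and *Gstm7*, and the deepest red, in *Gstt1*, and the theca and interstitial sum of CTX 2 (12.04 FPKM) lies past the end of the colours.

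Genes around the 2 families were read from 5 lists holding 109 genes, of which 63 were tested, 1 rose and 0 fell, with 12 at an unadjusted p below 0.05, beside 1.40% and 0.360% of all genes that rose and fell and 19.6% with an unadjusted p below 0.05. These counts lie near the background. The gene that rose was *Ephx1*, the microsomal epoxide hydrolase, which opens reactive epoxides to diols and is named here as a member of the list of cyclophosphamide activation and other aldehyde metabolism. It was at 9.21, 8.70 and 9.21 FPKM in PBS 1, 2 and 3 and at 39.4, 44.9 and 41.1 FPKM in CTX 1, 2 and 3, with no overlap and a like level in all CTX samples. Its log2 fold change of 2.197 ± 0.07 passed the 2-fold threshold (limma, adjusted p = 0.000451).

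The list of cyclophosphamide activation and other aldehyde metabolism held 36 genes, of which 18 were tested, 1 rose and 0 fell. All its cytochrome P450 genes (*Cyp2b*, *Cyp2c* and *Cyp3a*) were among the 18 not tested, so these counts do not cover them. Their largest count in any sample was 61 reads, of *Cyp3a11* in CTX 3. *Cyp3a11*, *Cyp2c29* and *Cyp3a25* had reads only in CTX 3 (61, 15 and 10), and the others held at most 5 reads in any sample. The source of these reads was not tested. The most expressed gene of the list was *Ephx2*, the soluble epoxide hydrolase of lipid epoxides. *Ephx2* was at 483, 472 and 518 FPKM in PBS and at 504, 164 and 310 FPKM in CTX 1, 2 and 3 (log2 fold change −0.73 ± 0.38, limma, adjusted p = 0.328). CTX 2 was again the lowest, with CTX 3 between it and CTX 1. The median log2 fold change of the list was −0.18.

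The list of glutathione synthesis and recycling held 18 genes, of which 11 were tested and 0 were called, with a median of 0.04. The most expressed, *Slc3a2*, the heavy chain of the cystine carrier, was at 133, 129 and 145 FPKM in PBS and at 144, 92.3 and 119 FPKM in CTX, with an adjusted p of 0.479 in limma. *Slc7a11*, the light chain of that carrier, was at 0.310 to 0.443 FPKM in PBS and at 0.151 to 0.277 FPKM in CTX. All its CTX values lay below PBS, and it was not tested. *Gclc* and *Gclm*, the 2 subunits of the enzyme that limits glutathione synthesis, had all CTX values above all PBS values. Their log2 fold changes were 0.25 ± 0.13 and 0.18 ± 0.07, with adjusted p-values of 0.339 and 0.250 (limma). *Ggt7* and *Oplah* had all CTX values below all PBS values. Their log2 fold changes were −0.74 ± 0.34 and −0.22 ± 0.12, with adjusted p-values of 0.287 and 0.364 (limma). Each pair made up 18.2% of the 11 tested genes, against 15.0% of all genes above and 14.1% below. *Slc7a11*, *Gclc*, *Gclm*, *Ggt7* and *Oplah* were named after their values were seen.

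Of the 12 genes for export of conjugates and drugs, 9 were tested and 0 were called. Of the 25 genes for retinoic acid synthesis, binding and removal, 14 were tested and 0 were called, and *Crabp2*, which carries retinoic acid to the nucleus, was at 46.6 to 54.9 FPKM in PBS and at 42.9 to 57.8 FPKM in CTX. Of the 18 relatives of transferases outside the name rule, 11 were tested and 0 were called, and *Eef1g*, a translation factor subunit with a transferase domain, was at 199 to 228 FPKM in PBS and at 218 to 285 FPKM in CTX. Medians of these 3 lists were 0.06, 0.01 and 0.01.

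**Figure D5:**
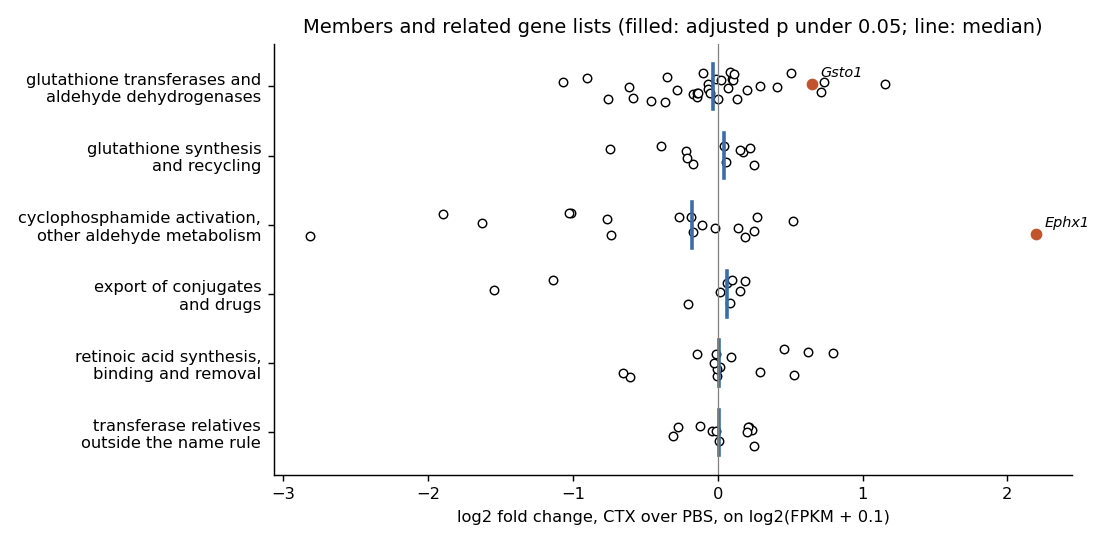
Log2 fold change of CTX over PBS on log2(FPKM + 0.1) for each tested gene of the 2 families together and of the 5 related lists, with the median of each as a blue line and genes with an adjusted p below 0.05 filled. Only *Gsto1* (0.65) and *Ephx1* (2.197) are filled, and the medians lie between −0.18 and 0.06.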

How the data were processed

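RNA-seq of 6 GC samples (3 PBS, 3 CTX) was analysed from the FPKM values deposited by the authors, on GRCm38 with Ensembl identifiers. The submitters' processing notes name CASAVA 1.8, fastp, HISAT2 2.0.5, featureCounts 1.5.0-p3 and DESeq2 1.20.0, with no roles or order, and the mm10 build. The table also holds 5 columns of the authors' own comparison (group means, fold change and p-values), which were not used. Multiplied by gene length, 100% of FPKM values were whole multiples of 1 read (tolerance 0.01 reads), and these reads served for depth and for voom.

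Groups were taken from the labels. Genes with mean FPKM of at least 0.5 (14463) were compared on log2(FPKM + 0.1) with limma 3.58.1 (lmFit, eBayes with trend) in R 4.3.3, with Benjamini-Hochberg adjustment. A fold change on this scale understates that of low genes. P-values reflect the spread between pools of mice. The fit was tested on simulated data. Alternatives were pseudocounts of 1 and 0.01, no filter or a mean of at least 5 FPKM, scaling to total reads, quantile normalization, arrayWeights, voom, a replicate block, protein-coding genes only and each sample left out.

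Members and gene lists were chosen with earlier results of these data known. Per-sample values were given for members with an adjusted p below 0.05, those with an unadjusted p below 0.05 and no overlap, and the most expressed of each class, and for the called and the most expressed genes of each list. An item that this rule names is not reported here. Other genes were named after their values were seen. Coding sequences were rebuilt from GENCODE M21, in which all 46 members occur, 39 with the same start and end, and promoters came from RefSeq tables. Scripts used Python 3.11.15, pandas 2.3.3, NumPy 2.4.6, Biopython 1.88 and matplotlib 3.10.9.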

Additional observations from a re-analysis of the deposited data

How the results depend on the processing

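*Gsto1* kept a positive log2 fold change in all 16 alternatives (0.57 to 0.70) and an adjusted p below 0.05 in 11. It lost the call without PBS 1, 2 or 3, without CTX 3 and with the replicate block (adjusted p = 0.105). *Ephx1* was called in all 16 (2.09 to 2.24, adjusted p at most 0.0184). Leaving out each sample in turn gave 0 to 3 members higher, 0 lower and 0 past the 2-fold threshold, 70 to 526 genes called of all tested, and 1 to 2 list genes higher and 0 to 3 lower. The 3 members called higher without CTX 2 were *Gsto1*, *Aldh1a1* and *Aldh4a1*.

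With arrayWeights, 11 members were higher, 5 lower and 2 past the 2-fold threshold, with 5753 genes called in all and 18 list genes higher and 10 lower. The weights ran, after an estimate that limma stopped short of convergence, from 0.163 (CTX 2) to 16.6 (CTX 3). *Gstz1* changed sign with arrayWeights (0.0803), and so did *Mgst1* (−0.0935). Leaving out CTX 2 turned the sign of both and of *Aldh3b1*, and over each sample left out in turn the log2 fold changes ran from −0.192 to 0.0112 for *Gstz1*, from −0.00328 to 0.163 for *Mgst1* and from −1.039 to 0.0054 for *Aldh3b1*. Over all alternatives, log2 fold changes ran from 0.79 to 1.51 for *Gstt1* and from −1.36 to −0.47 for *Aldh1a3*, with none turning sign. The cause was not tested.

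The labels do not say whether replicate numbers pair the samples. Deviations of same-numbered samples correlated at 0.0556, 0.0242 and 0.00581, and those of other pairs at −0.0756 to 0.0593. With 3 samples per group and CTX 2 far from the rest, these values cannot decide it. With the replicate block, 0 members were higher and 53 genes were called in all. Other scalings and filters moved the median of all genes to between −0.04 and 0.00 and left the member counts at 1 higher and 0 lower. The 12 members that were not tested fell under the minimum mean level. Without that filter 45 members were tested, with 1 higher and 0 lower. At this depth 5 members had at most 2 reads in any sample.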

Other observations

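Genes of retinoic acid signalling, chosen after their values were seen, held 4 unadjusted p-values below 0.05 among 14 tested, beside 19.6% of all genes, and none of the 4 was called. *Rarg*, a retinoic acid receptor, was at 5.78, 5.45 and 4.98 FPKM in PBS 1, 2 and 3 and at 8.15, 13.3 and 7.72 FPKM in CTX 1, 2 and 3 (log2 fold change 0.79 ± 0.21, limma, adjusted p = 0.137). Its partner *Rxra* was at 10.2 to 10.4 FPKM in PBS and at 12.4, 17.2 and 13.2 FPKM in CTX (log2 fold change 0.46 ± 0.13, limma, adjusted p = 0.1505). *Stra6*, which takes up retinol, was at 4.15 to 4.84 FPKM in PBS and at 5.03, 7.51 and 6.85 FPKM in CTX (limma, adjusted p = 0.174). *Dhrs3*, which returns retinal to retinol, lay the other way, at 10.3 to 11.8 FPKM in PBS and at 9.22, 5.37 and 6.83 FPKM in CTX (log2 fold change −0.65 ± 0.19, limma, adjusted p = 0.160). In all 4 genes CTX 2 was the sample farthest from PBS, and the groups did not overlap, against 29.2% of all genes without overlap. The 4 were picked by their unadjusted p, so their lack of overlap is not a separate result. Over the 14 tested genes of the list, the groups overlapped in 8. All CTX values lay above PBS in 28.6% and below in 14.3%, against 15.0% and 14.1% of all genes, and the median log2 fold change was 0.01.

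Several genes of the related lists had very low levels in CTX 2, as *Gsta4* and *Aldh3b1* did. The lists as a whole did not lean this way. Of their 63 tested genes, CTX 2 was the lowest sample in 23 and the highest in 24, against 28.1% and 29.9% of all genes. The genes given next were named after their values were seen. *Adh1*, an alcohol dehydrogenase, was at 46.7 to 51.0 FPKM in PBS and at 77.8, 3.31 and 52.2 FPKM in CTX 1, 2 and 3. *Akr1b7*, an aldose reductase relative, was at 2.67 to 3.33 FPKM in PBS and at 2.76, 0 and 0.218 FPKM in CTX 1, 2 and 3. *Abcb1b*, a drug efflux pump, was at 2.86 to 3.07 FPKM in PBS and at 3.31, 0.0847 and 1.77 FPKM in CTX 1, 2 and 3. In *Adh1*, *Akr1b7* and *Abcb1b* CTX 3 lay between CTX 1 and CTX 2, as it did in 51.4% of all genes. The same held for *Lhcgr*, *Cyp17a1*, *Star* and the stroma marker sum but not for *Ptch1* or *Insl3*. The part of cell makeup was not tested.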
